A study of Saccharomyces cerevisiae with 61 samples.

Results

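Wild-type budding yeast in meiosis at 34 °C was compared with the same wild type at 30 °C, by spike-in calibrated chromatin immunoprecipitation (ChIP) of topoisomerase II, Top2. The comparison took every spike-in library labelled as wild type at 3 h in sporulation medium: 4 libraries of the 34 °C group and 6 of the 30 °C group, which makes 10 of the 61 samples of the series. Each replicate, called a culture here, gave 1 Top2 ChIP library and 1 paired input library of DNA before precipitation. Thus 2 cultures at 34 °C stood against 3 cultures at 30 °C. The labels do not say whether they were grown separately. The labels give the strain H7797 in the SK1 background to both groups. The 34 °C cultures were pre-grown at room temperature, shaken for 1 h in sporulation medium at room temperature and then moved to 34 °C. The 30 °C cultures were pre-grown and sporulated at 30 °C. In both groups 25 ml of cells were fixed for 30 min in 1% formaldehyde, and crosslinked meiotic cells of the strain S288c were added at 20% before ChIP. For replicate 3 at 30 °C the strain tag holds the number that spo11 cultures also hold, whereas its description names the wild-type strain, and the title, wild type, was followed.

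Top2 cuts and reseals both strands of a DNA double helix, and so removes the supercoils and entanglements that replication and transcription leave behind. In yeast meiosis the chromosomes are replicated and folded into loops along a protein axis, where recombination starts with programmed DNA breaks, and Top2 is found along these chromosomes. SK1 is a fast and synchronous sporulator used for this reason in meiosis work, and S288c is the reference laboratory strain. The genomes of the 2 strains differ at many single bases, so that sequence reads can be assigned to the sample (SK1) or to the added cells (S288c). The added cells pass through the same tube, antibody and sequencing run as the sample. The ratio of SK1 to S288c reads in the ChIP, divided by that ratio in the input, gives the Top2 signal of the sample relative to that of the added cells, called the scaled ratio here. In the series the 34 °C wild type stands beside a top2-1 mutant that was shifted in the same way.

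The 10 libraries held between 1345767 and 4266768 assigned reads, and no chromosome of either genome had fewer than 4098 reads in any of them. The 95% Wilson interval of the S288c share of reads was at most 0.0659 percentage points wide on either side, which covers counting error only. Both 34 °C cultures were sequenced on 1 flow cell, called A here, and the 30 °C replicates 1, 2 and 3 on 3 others, called B, C and D. No flow cell held wild type at both temperatures. In the wild type, temperature, pre-growth and flow cell therefore cannot be told apart, and no within-batch value could be had. The libraries of replicate 1 at 30 °C, 2 of the 10, held even counts only. Nothing in the labels says that replicates came from separate cultures, and the p-values then measure only the spread between these samples, which may be technical. Every replicate pair differed by more than sampling noise, and the closest pair was the 34 °C inputs (chi-square 160 on 31 degrees of freedom).

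The scaled Top2 ratio was higher in both 34 °C cultures than in all 3 cultures at 30 °C, and this difference lay in the input part of the ratio. The scaled ratio was 1.93 and 1.61 at 34 °C, against 1.28, 1.52 and 1.20 at 30 °C. The groups did not overlap, but the lower 34 °C culture and the highest 30 °C culture lay closer together than the 2 cultures at 34 °C did. On the log2 scale the scaled ratio averaged 0.82 ± 0.19 at 34 °C (SD, n = 2) and 0.40 ± 0.18 at 30 °C (SD, n = 3), a difference of 0.41 or 1.33-fold. The pooled SD between replicates was 0.18. An exact two-sided permutation test gave p = 0.2, which is the smallest value that 2 against 3 cultures allow, and 0.28 after Benjamini-Hochberg adjustment over the 7 exact tests made. The counting error of a culture's log2 scaled ratio was 0.0028 to 0.0046, far under the spread between cultures. It was lowest in replicate 1 at 30 °C, whose libraries held even counts only and whose counting error may be understated.

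In the input libraries, the ratio of SK1 to S288c reads was 3.03 and 3.08 at 34 °C, against 4.29, 4.10 and 4.34 at 30 °C. All 34 °C inputs were below all 30 °C inputs, and the spread within each group was small beside the gap. The log2 input ratio averaged 1.61 ± 0.018 at 34 °C and 2.09 ± 0.042 at 30 °C (SD, n = 2 and 3), a difference of -0.48 (exact two-sided permutation p = 0.2, adjusted p = 0.28). In other words, S288c DNA made up 24.8% and 24.5% of the input reads at 34 °C, and 18.9%, 19.6% and 18.7% at 30 °C. The ChIP libraries did not separate in this way. Their ratio of SK1 to S288c reads was 5.84 and 4.95 at 34 °C, against 5.48, 6.23 and 5.19 at 30 °C. These ranges overlapped, and the log2 difference, -0.063, was smaller than the pooled SD of 0.15 (exact two-sided permutation p = 0.8, adjusted p = 0.8). The log2 scaled ratio is the ChIP value minus the input value, so that the difference between the temperatures was -0.063 without the input correction and 0.41 with it. How many SK1 and S288c cells or genomes entered each tube was not measured apart from these reads.

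**Figure D1:**
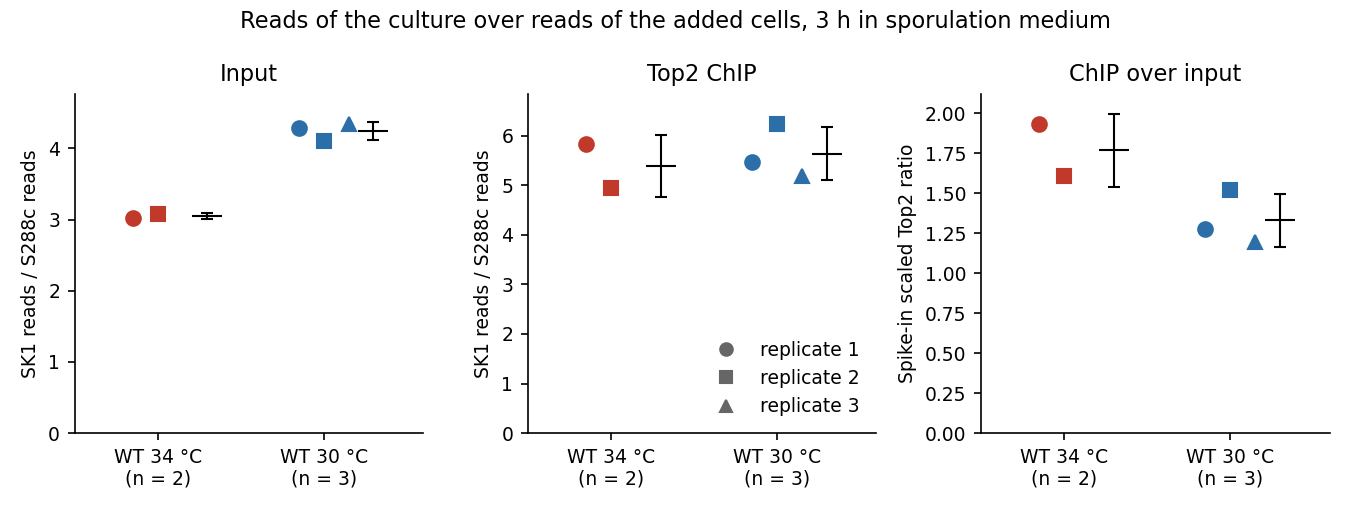
SK1 reads divided by S288c reads in the input (left) and the Top2 ChIP (middle), and the ratio of the second to the first (right), for the 2 cultures at 34 °C and the 3 at 30 °C. Symbols are cultures, and the bars beside them give the mean and SD. The inputs at 34 °C, 3.03 and 3.08, lie below those at 30 °C, the ChIP ratios overlap, and the scaled ratios at 34 °C, 1.93 and 1.61, lie above those at 30 °C.

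The other spike-in cultures of the series place these values. Over all 7 cultures at 3 h and 30 °C, mutants included, the input ratio ranged from 2.94 to 4.46, a range that holds both 34 °C inputs. The scaled ratio over the same 7 cultures ranged from 1.20 to 1.52, below both 34 °C cultures. The top2-1 mutant, grown at 34 °C after the same shift but sequenced on flow cell D, had input ratios of 2.48 and 2.65 and scaled ratios of 0.50 and 0.35. Wild-type cells at 0 h had input ratios of 2.56, 2.02 and 2.19 and scaled ratios of 0.99, 0.92 and 1.05. Wild type at 34 °C thus had the highest 2 scaled ratios of the 14 spike-in cultures, with input ratios between those of the 0 h and the 3 h wild type at 30 °C.

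The higher scaled ratio was spread over the genome and was not carried by a few chromosomes. Each SK1 chromosome was set against the same chromosome of S288c, in ChIP over input. In 15 of the 16 chromosomes both 34 °C cultures were above all 3 at 30 °C, which is 93.8% and follows the genome-wide ratio that all chromosomes of a library share. The log2 difference between the temperatures ranged over these 15 from 0.37 for chromosome III to 0.49 for chromosome VI, and its median over all 16 was 0.45. Chromosome III is one of the shortest and carries the mating-type locus, and chromosome VI is another of the shortest. The scaled ratio of chromosome III was 1.90 and 1.57 at 34 °C, against 1.26, 1.53 and 1.25 at 30 °C. Chromosome XI had the highest mean at 34 °C, with log2 values of 1.04 and 0.80, against 0.38, 0.70 and 0.35 at 30 °C. On chromosome III the lower 34 °C culture was only just above the highest 30 °C culture, and on chromosome XI the gap was wider.

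Chromosome XII was the exception. It holds the ribosomal DNA, a long tandem array of ribosomal RNA genes whose copy number differs between strains and whose repeats a reference sequence represents only in part. The log2 scaled ratio of chromosome XII was 0.54 and 0.22 at 34 °C, against 0.30, 0.34 and 0.061 at 30 °C. The groups overlapped, and the difference between their means, 0.14, was below the SD within either group, 0.22 at 34 °C and 0.15 at 30 °C. Chromosome XII was the lowest chromosome in both 34 °C cultures and in 2 of the 3 cultures at 30 °C, replicates 2 and 3. With XII left out of both genomes the genome-wide scaled ratio was 2.01 and 1.69 at 34 °C, against 1.28, 1.57 and 1.23 at 30 °C.

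**Figure D2:**
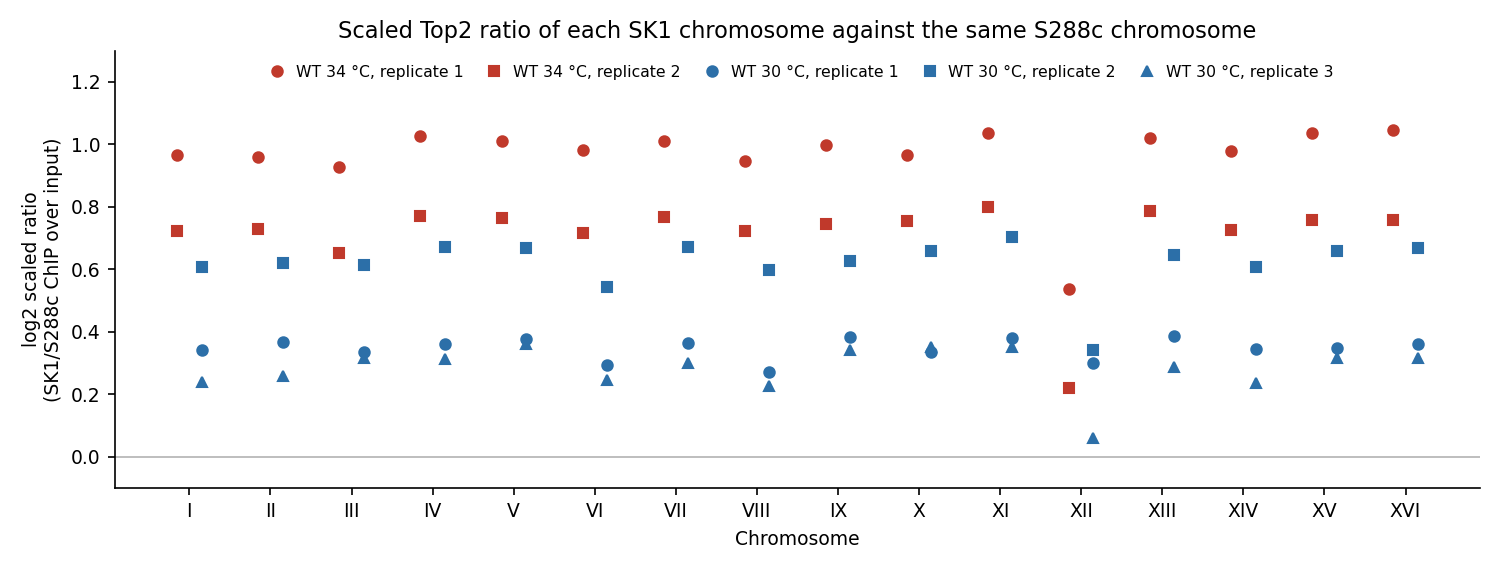
Log2 scaled ratio of each SK1 chromosome against the same S288c chromosome, with 1 symbol per culture (34 °C red, 30 °C blue). On 15 of the 16 chromosomes both 34 °C cultures are above all 30 °C cultures, and on chromosome XII the groups overlap.

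The spread between chromosomes other than XII overlapped between the temperatures. The SD of the log2 scaled ratio over the 15 chromosomes other than XII was 0.037 and 0.035 at 34 °C, against 0.032, 0.040 and 0.046 at 30 °C. The 34 °C values lay within the range at 30 °C, and the difference of the means was -0.0031 (exact two-sided permutation p = 0.8, adjusted p = 0.8). With XII included, the difference was 0.064, the SD being higher at 34 °C (exact two-sided permutation p = 0.2).

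Within the SK1 genome, the share of Top2 signal on each chromosome differed little between the 2 temperatures, and chromosome I was the only one to pass the test. For this comparison each chromosome's share of SK1 ChIP reads was divided by its share of SK1 input reads, which does not depend on the added cells. A log2 value of 0 means that a chromosome took the same share of both. The median absolute change between the temperatures was 0.0099 on this scale and the largest was 0.075. In edgeR's quasi-likelihood test over the 16 SK1 chromosomes, 1 chromosome passed a Benjamini-Hochberg adjusted p under 0.05, which is 6.25% of those tested, and 2 had an unadjusted p under 0.05. As a description, over the 16 chromosomes the mean profiles at 34 °C and 30 °C had a Pearson r of 0.87, and of 0.94 with chromosome I left out. The points of such a correlation share their libraries.

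Chromosome I, the shortest chromosome of budding yeast, rose at 34 °C. Its log2 relative share was 0.090 and 0.088 at 34 °C, against -0.0060, -0.0080 and 0.057 at 30 °C. The cultures at 34 °C were nearly equal and above the others, and replicate 3 at 30 °C lay closer to them than to its own group. The 12 other spike-in cultures ranged from -0.035 to 0.081. The log2 change was 0.077 with an SE of 0.024 (edgeR quasi-likelihood test, adjusted p = 0.035). The call was lost when replicate 1 or 2 at 30 °C or either 34 °C culture was left out, with adjusted p of 0.56, 0.28, 0.58 and 0.51 in the same test. It was also lost with TMM factors (adjusted p = 0.10).

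The other SK1 chromosomes followed by name did not pass the test. Chromosome VI had log2 relative shares of -0.015 and -0.017 at 34 °C, against -0.050, -0.077 and -0.045 at 30 °C. The groups did not overlap, but the change of 0.041 had an adjusted p of 0.34 in the edgeR test. Chromosome III, another of the 3 shortest, had 0.023 and -0.0023 at 34 °C, against 0.0083, 5.45e-06 and 0.029 at 30 °C, and its change of -0.0016 had an adjusted p of 0.96. Of the 3 shortest chromosomes, 1 thus passed the test in SK1. Chromosome IV, with the largest share of SK1 input reads, changed by -0.0083 (adjusted p = 0.92) and chromosome XII by -0.0024 (adjusted p = 0.96), both in the same edgeR fit. The groups did not overlap for 3 chromosomes that were higher at 34 °C (I, V and VI, 18.8% of 16) and for 2 that were lower (II and VII, 12.5%). Chromosomes II, V and VII are named here because of their values.

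The S288c cells were already crosslinked when they were mixed into each tube, and their chromosomes serve as the control for library effects. With chromosome XII left out, 2 of the 15 S288c chromosomes passed the same edgeR test, which is 13.3%, both higher at 34 °C, and 7 had an unadjusted p under 0.05. The median absolute change was 0.015 over these 15 S288c chromosomes and 0.0099 over the 16 of SK1, so that the added cells moved between the groups by amounts of the same order as the sample.

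S288c chromosome I had log2 relative shares of 0.12 and 0.11 in the 34 °C tubes, against 0.0016, 0.025 and 0.11 in the 30 °C tubes. Replicate 3 at 30 °C lay between the 34 °C values, as it had been the closest of its group to them in SK1. The 12 other spike-in cultures ranged from -0.0013 to 0.17, a range that includes both 34 °C values. The change was 0.078 with an SE of 0.021 (edgeR, adjusted p = 0.0099). It did not pass without replicate 1 or 2 at 30 °C (adjusted p = 0.28 and 0.30) or with DESeq2 (adjusted p = 0.19).

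S288c chromosome III had log2 relative shares of 0.093 and 0.093 in the 34 °C tubes, against 0.020, 0.025 and 0.0096 in the 30 °C tubes. The wild-type groups were well apart, but the 12 other spike-in cultures ranged from -0.0072 to 0.12, which includes the 34 °C values. The change was 0.074 with an SE of 0.015 (edgeR, adjusted p = 0.00096), and the call held when any 1 culture was left out. It was lost when all 14 spike-in cultures shared 1 estimate of the spread (adjusted p = 0.084) and when chromosome XII was kept in the shares (change 0.037, adjusted p = 0.27).

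Of the other S288c chromosomes followed by name, VI changed by -0.00066 (adjusted p = 0.99) and IV by -0.014 (adjusted p = 0.085) in the same edgeR fit. The groups did not overlap for 4 S288c chromosomes that were higher in the 34 °C tubes (III, V, IX and X, 26.7% of 15) and for 2 that were lower (IV and VII, 13.3%), V, VII, IX and X being named because of their values. V and VII did so in the same direction in SK1. This balance depends on chromosome XII: with XII kept in the shares, 2 S288c chromosomes were higher without overlap (12.5% of 16) and 7 were lower (43.8%).

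**Figure D3:**
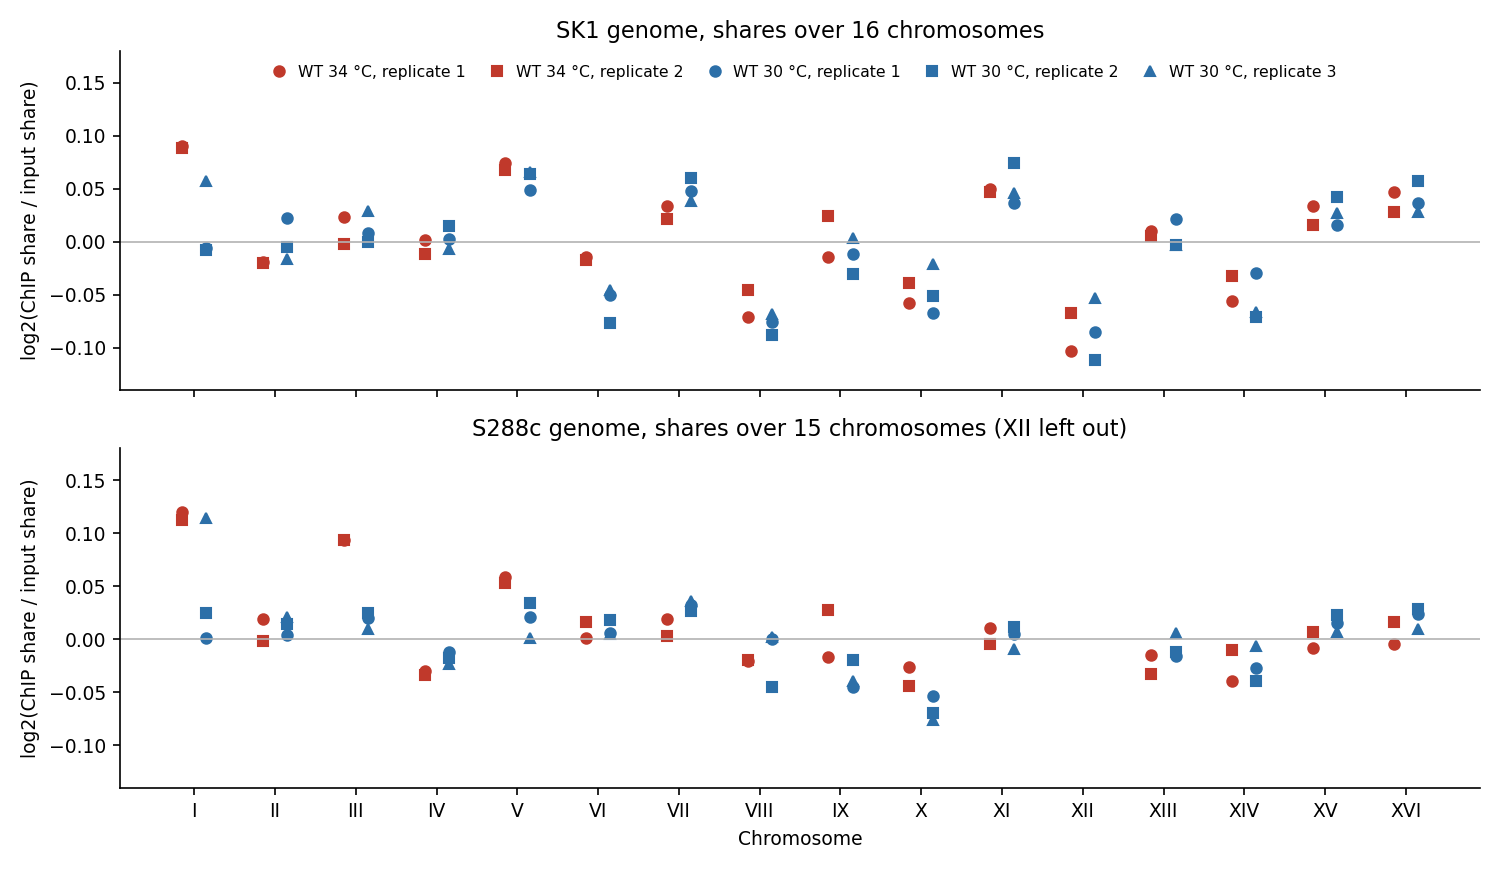
Log2 of each chromosome's share of ChIP reads over its share of input reads, in the SK1 genome (top, 16 chromosomes) and the S288c genome (bottom, 15 chromosomes). Each symbol is a culture, red for 34 °C and blue for 30 °C. Chromosome I is raised at 34 °C in both genomes, with replicate 3 at 30 °C near it, and chromosome III is raised in S288c, with overlapping groups in SK1.

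The difference between the 2 genomes was tested directly, in 1 edgeR model with both genomes of each library. It passed for 1 of 15 chromosomes, 6.67%, which was chromosome III. Its change in SK1 minus its change in S288c was -0.076 with an SE of 0.021 (adjusted p = 0.014). This call was lost with DESeq2 (adjusted p = 0.45), with TMM factors (0.051), and without replicate 1 or 2 at 34 °C (0.25 and 0.65) or replicate 3 at 30 °C (0.13). For chromosome I the same quantity was 0.0017 with an SE of 0.019 (adjusted p = 0.93). With chromosome XII left out of the shares, the changes of chromosome I in the 2 genomes were thus nearly equal. With XII kept, the S288c change of chromosome I was 0.041 (adjusted p = 0.27) and the difference between the genomes 0.038 (adjusted p = 0.20). For chromosome VI the quantity was 0.042 (adjusted p = 0.70) and for chromosome IV 0.0056 (adjusted p = 0.75). With XII kept, the chromosomes that passed were VI, at 0.077 (adjusted p = 0.014), and XII, and chromosome III no longer passed, at -0.039 (adjusted p = 0.20).

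Over the 15 chromosomes, 8 changed in the same direction in both genomes. The Pearson r of the 2 sets of changes was 0.50 and Spearman's rho 0.48, and r was 0.20 with chromosome I left out. These are descriptions across chromosomes that share libraries, and carry no p.

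At 34 °C a straight-line fit of the relative ChIP share fell with chromosome size, in both genomes of both cultures. In SK1 this fall leaned on chromosome I, which lies at the short end and had the highest 34 °C mean, 0.089. The other SK1 chromosomes showed no clear order by size. Their 34 °C mean was 0.010 for III and -0.016 for VI, both short, and -0.0049 for IV and 0.037 for XVI, among the longer ones. The size slope is the change of the log2 relative share for each 10-fold increase of a chromosome's mean share of SK1 input reads, which stands in for its length. In SK1 the slope was -0.050 and -0.058 at 34 °C, against 0.035, 0.058 and -0.030 at 30 °C. The 34 °C slopes were the most negative, and the 30 °C slopes had both signs. The means were -0.054 ± 0.0057 and 0.021 ± 0.046 (SD, n = 2 and 3), a difference of -0.075 (exact two-sided permutation p = 0.2, adjusted p = 0.28). With chromosomes I, III and VI left out, the difference was -0.056 (exact two-sided permutation p = 0.4). Whether the SK1 slopes at 34 °C stay negative without chromosome I alone was not tested.

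In S288c, over 15 chromosomes, the slope was -0.13 and -0.15 in the 34 °C tubes, against 0.0056, -0.018 and -0.065 in the 30 °C tubes. The added cells thus showed the same order of the groups, with a lower slope than SK1 in every culture and a steeper one at 34 °C. The difference was -0.11 (exact two-sided permutation p = 0.2, adjusted p = 0.28). Over the 7 cultures at 3 h and 30 °C the S288c slope ranged from -0.14 to 0.0056, which reaches the less steep 34 °C value, and the SK1 slope from -0.044 to 0.058, which does not. The S288c slope was next subtracted from the SK1 slope, with XII left out of SK1 too. The result was 0.10 and 0.10 at 34 °C, against 0.046, 0.098 and 0.045 at 30 °C. The sign of the difference between temperatures turned, to 0.038 (exact two-sided permutation p = 0.2, adjusted p = 0.28), and replicate 2 at 30 °C came close to the 34 °C values. This direction holds only with chromosome XII left out: with XII kept, the difference was -0.017, and the difference of the S288c slopes was -0.058.

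**Figure D4:**
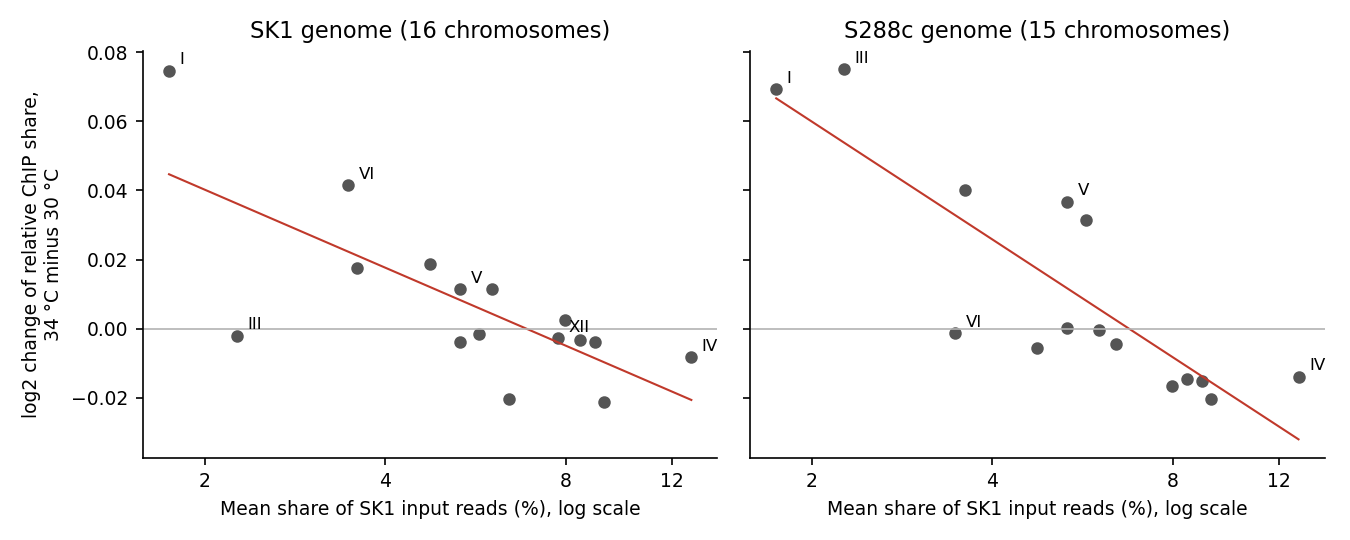
Change of the log2 relative ChIP share, 34 °C minus 30 °C, against the mean share of SK1 input reads (log axis) for SK1 (left) and S288c (right), with a straight-line fit. Points are chromosomes, some of them named. Chromosome I is high in both genomes, chromosome III is near 0 in SK1 and high in S288c, and the fitted line falls in both.

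The ribosomal DNA chromosome behaved differently in the 2 genomes. In SK1, chromosome XII took 7.29% and 7.46% of the ChIP reads at 34 °C, against 7.42%, 7.08% and 7.40% at 30 °C. Its share of the SK1 input was 7.84% and 7.82% at 34 °C, against 7.87%, 7.65% and 7.68% at 30 °C. In SK1 it was therefore a little under-represented in every ChIP, with overlapping groups. In S288c, chromosome XII took 15.1% and 15.7% of the ChIP reads in the 34 °C tubes, against 10.98%, 21.3% and 21.4% in the 30 °C tubes. Its share of the S288c input was 12.2% and 11.9% at 34 °C, against 11.2%, 19.3% and 19.4% at 30 °C. The S288c shares at 34 °C were nearest those of replicate 1 at 30 °C and far from the other two.

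With ChIP set over input, S288c chromosome XII had a log2 relative share of 0.31 and 0.40 in the 34 °C tubes, against -0.033, 0.15 and 0.15 in the 30 °C tubes. Both 34 °C values were above all 12 other spike-in cultures, which ranged from -0.16 to 0.24. In an edgeR fit that kept chromosome XII, the change was 0.27 with an SE of 0.052 (adjusted p = 0.00011). The call was lost without replicate 2 at 34 °C (adjusted p = 0.31) and held without any other culture. The change in SK1 minus that in S288c was -0.27 with an SE of 0.075 (adjusted p = 0.013), and this was lost with DESeq2 (adjusted p = 0.996) and without either 34 °C culture or replicate 3 at 30 °C (0.059, 0.21 and 0.27). At 34 °C the matched ratio of chromosome XII was low beside the other chromosomes, not beside 30 °C (mean log2 0.38 against 0.23). It came with a higher ratio of ChIP to input share of this chromosome in the added S288c cells. The S288c ChIP share of XII alone overlapped between the groups. The SK1 relative share did not pass the test.

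**Figure D5:**
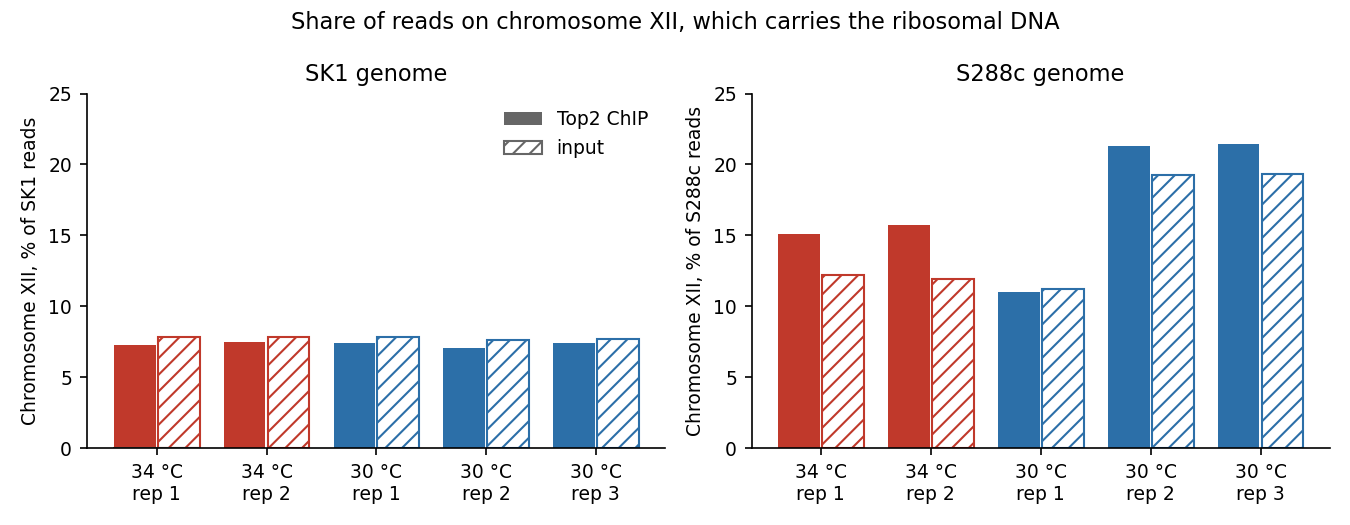
Share of reads on chromosome XII as a percentage of SK1 reads (left) and of S288c reads (right), in the Top2 ChIP (filled) and the input (hatched) of each culture, 34 °C red and 30 °C blue. SK1 shares stay between 7.08% and 7.87%, while S288c shares differ widely between the 30 °C cultures, and both 34 °C tubes and replicates 2 and 3 at 30 °C show more in the ChIP than in the input.

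The composition of the inputs went with the flow cell. No SK1 chromosome of 16 and no S288c chromosome of 15 had an input share that passed the edgeR test between the temperatures (0% each), none had an unadjusted p under 0.05, and with DESeq2 none passed either, 1 SK1 chromosome and 0 S288c chromosomes having an unadjusted p under 0.05. The 30 °C group was itself divided. SK1 chromosome VI made up 3.14% and 3.15% of the input at 34 °C, against 3.01%, 3.65% and 3.69% at 30 °C. SK1 chromosome I made up 1.68% and 1.67% at 34 °C, against 1.55%, 1.86% and 1.83% at 30 °C. In both, replicate 1 at 30 °C lay on the far side of the 34 °C inputs from the other two cultures of its group.

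The same division ran through the whole series. The 3 cultures on flow cell B, of which 1 is a mutant and 1 a 0 h culture, had 3.00% to 3.01% of SK1 input reads on chromosome VI, and the 9 cultures on flow cells C and D had 3.61% to 3.78%. The top2-1 mutant at 34 °C, on flow cell D, was within the second range. S288c chromosome XII showed the same order, with 10.5% to 11.7% of the S288c input on flow cell B and 15.95% to 19.4% on C and D. When replicate 1 at 30 °C was left out, 7 SK1 and 8 S288c chromosomes passed the input test, so that the absence of calls rests on the spread this culture brings. What flow cell differences do to the ratios at 34 °C was not tested, since flow cell A held no other group.

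The authors' deposited list of Top2 peaks, made from wild type at 3 h and 30 °C, covers 15.7% of chromosome III up to its last peak, 15.1% of VI, 16.4% of XII and 18.2% of IV. Chromosome I lies between III and XII in coverage. It has the fewest peaks per 100 kb of the 16 chromosomes, 17.8, followed by VI with 20.96. I and VI had the largest changes in SK1. The next densities, 21.07 for XII and 21.4 for III, were close to that of VI, but their SK1 changes were only -0.0024 and -0.0016. The 3 shortest chromosomes have a lower coverage than IV in this list. Over the 16 SK1 chromosomes the coverage had a Pearson r of 0.18 with the mean relative share at 34 °C, of 0.44 with that at 30 °C and of -0.50 with the change. These are descriptions over chromosomes of the same libraries, and no test was made.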

How the data were processed

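Deposited values were whole-number read counts for 16 SK1 and 16 S288c chromosomes in each spike-in library, without normalization by the authors. The submitters' processing notes name Bowtie; aligner settings and filters are not given in the sources used here. Libraries were single-end on a NextSeq, per the labels' protocols. Flow cells were read from the deposited names and lettered here. The fold enrichment (a ratio) in the authors' deposited Top2 peak list came from MACS2 2.1.1, per the submitters' processing notes; only peak positions were used for the coverage.

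Groups followed the titles. Exact permutation tests over cultures used log2 ratios and size slopes (7 tests, Benjamini-Hochberg). Chromosome shares were tested with edgeR 4.0.16 (quasi-likelihood, R 4.3.3, no replicate block): a term for each culture, ChIP against input, and ChIP by temperature, with the genome total as library size and tagwise dispersion of at least 0.0001. Without that floor edgeR's largest deviance was 14044, whereas the largest exact value was 5.92. The SE is the log2 change over the square root of the F that the p stands for. S288c XII was left out of the S288c fits and kept in a second fit. Its input share went with the flow cell, and its copy number was not measured. DESeq2 1.42.0 was an alternative. The fits were tested on simulated counts for the SK1 ChIP share, the genome difference and the SK1 input share. A log2 change of 0.05 was recovered in 16.5%, 7.75% and 42.5% of cases, in that order. For a change of 0.1 this was 81.5%, 41.2% and 99%. The simulated counts had the same fixed dispersion for every chromosome. In the data the SE of the input share change was 0.086 for SK1 chromosome I and 0.076 for VI. The simulated recovery of input changes therefore does not hold for these chromosomes. Chromosomes followed by name were I, III, VI, IV and XII, any called (where 5 or fewer), and those with the highest and lowest ratio at 34 °C. Members and lists were chosen with earlier results of these data known. The row for unassigned reads was 0 and left out.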

Additional observations from a re-analysis of the deposited data

Results flagged for a closer look

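Chromosome III was the only chromosome of 15 for which the test of the difference between the genomes passed: the change of its SK1 ChIP share minus that of its S288c ChIP share, 34 °C against 30 °C, was -0.076 on the log2 scale (edgeR quasi-likelihood test, adjusted p = 0.014). The SK1 share had overlapping groups, and the S288c share was higher in both 34 °C tubes than in all 30 °C tubes. Over 15 other settings the difference ranged from -0.087 to -0.039. With both 34 °C cultures kept, the adjusted p ran from 0.0036 (edgeR, without replicate 2 at 30 °C) to 0.45 (DESeq2). The fit with no dispersion floor, where edgeR's deviance departed from the exact value, is left out of this range of p.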

How the results depend on the processing

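Without the input correction the log2 scaled ratio reversed to -0.063. With each culture left out in turn, the scaled ratio difference ranged from 0.28 to 0.54, the input ratio from -0.50 to -0.46, the SK1 slope from -0.10 to -0.056, the S288c slope from -0.13 to -0.098, the SK1 minus S288c slope from 0.029 to 0.056, the ChIP ratio from -0.18 to 0.056 (reversed without 34 °C replicate 2, 0.056, and without 30 °C replicate 2, 0.011) and the SD over chromosomes from -0.0067 to 3.21e-05 (reversed without 30 °C replicate 3, 3.21e-05). Keeping chromosome XII reversed the SK1 minus S288c slope (-0.017) and the SD (0.064). No exact test could reach 0.05 in this design.

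SK1 chromosomes called numbered 0 with TMM factors, the dispersion floor of 0.0005, without XII and with the S288c library size, and 0 to 2 with a culture left out. S288c chromosomes called numbered 1 with DESeq2, 6 with no floor, 1 with XII kept (XII itself), 0 with all 14 cultures and 1 to 3 with a culture left out. Chromosomes that differed between genomes numbered 0 with TMM factors or DESeq2, 2 with XII kept (VI and XII, III no longer called) and 0 to 1 with a culture left out. Input calls ranged from 0 to 7 in SK1 and from 0 to 8 in S288c with a culture left out. Where a 34 °C culture was left out, the lone culture was assumed to vary like the 30 °C group.

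Small changes turned sign. SK1 chromosome III reached 0.00098 with TMM factors, 0.0059 without 30 °C replicate 3 and 0.011 without 34 °C replicate 2, in a range from -0.014 to 0.011 with each culture left out. SK1 chromosome XII reached 0.00035 with TMM factors, 0.012 without 30 °C replicate 3 and 0.015 without 34 °C replicate 1, in a range from -0.020 to 0.015 with each left out. With the S288c library size, which puts the genome-wide ratio back in, both were 0.41. The genome difference of chromosome I was -0.00095 without 30 °C replicate 2, -0.0079 without 30 °C replicate 3 and -0.0022 without 34 °C replicate 2, with at most 0.017 when a culture was left out and 0.038 with XII kept.

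The replicate numbers 1 and 2 occur in both groups but no label pairs them. The deviations of same-numbered cultures correlated at -0.17 and -0.59. The 2 cultures at 34 °C deviate from their mean by equal and opposite amounts, so these values cannot decide on a pairing. With the replicate block, 2 SK1 chromosomes were called (I and VI) and 0 between genomes, the SD over chromosomes was 3.21e-05, SK1 III was 0.0065, SK1 XII 0.012 and the genome difference of I -0.0072. The cause of these moves was not tested.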
